A study of Mus musculus with 30 samples.

Results

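D joins with blunt or overlapping ends were V(D)J joins between the JH4 segment and a D segment of the mouse immunoglobulin heavy chain locus. In the deposited alignments they had no base inserted between the ends. They were chosen by 3 criteria: the junction mapped to chromosome 12 on the plus strand, it fell in a window over the D segments, and its gap was 0 or less. The gap is the number of read bases that lie between the JH4 alignment and the D alignment. A gap of 0 is a blunt join, and a gap below 0 means that the same read bases were aligned to both ends, so that they cannot be assigned to either. By this rule 755407 of 1359588 D joins were members, out of 2074993 junctions of any kind. Of these, 52556 of 460969 D joins came from bone marrow and 702851 of 898619 from v-Abl cells. When short terminal matches beyond a mismatch were removed, 79.5% of bone marrow and 98.3% of v-Abl members kept a gap of 0 or less. The other members then had bases between the ends. Another 582661 D joins had a gap of 1 to 10 bases and serve here as the comparison joins. The gap chose the members, so values set against the comparison joins are descriptions without a test. Of the members, 51137 in bone marrow and 701929 in v-Abl cells lay at a main D segment, meaning one with at least 1000 D joins (13 and 10 segments). A further 621 and 608 lay at rarer D segments, and 798 and 314 lay in the window at no D segment.

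The joins were read by HTGTS-V(D)J-seq, a sequencing assay that extends from a fixed JH4 bait across the junction into the joined segment. The design asks what IGCR1, a regulatory region between the V and D segments, and the CTCF-binding elements (CBEs) at the 3' end of the locus contribute to V(D)J recombination. There were 30 libraries in 10 groups of 3. The labels do not say whether the 3 libraries of a group came from separate animals or cultures, so p-values measure only the spread between libraries, which may be technical.

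The bone marrow groups were B220+ IgM- CD43+ pro-B cells sorted from 129SV mice, of ages not given in the labels. WT mice were set against mice homozygous for a change in the IGCR1 CBEs: CBE12mut (CBE1&2-/-), CBE1mut (CBE1-/-), CBE1inv (CBE1inv/inv), CBE2mut (CBE2-/-) and CBE2inv (CBE2inv/inv). All v-Abl groups were Abelson virus-transformed C57BL/6 pro-B lines, in which every group carried RAG1-/-, an Emu-Bcl2 transgene, a WAPL degron and a single Igh allele, and received RAG1/2 by retrovirus. Recombination in these lines is started by STI-571, an Abl kinase inhibitor that arrests the cycle. The WT and 3CBEdel lines differed by a deletion of the 3' Igh CBEs. Untreated cells had 3 µM STI-571 for 4 days. Cells of the DoxIAA groups had STI-571 alone for 1 day and then STI-571 with 150 µM IAA, the auxin that drives loss of degron-tagged proteins, and 2 µg/mL Dox for 3 days. WAPL releases cohesin from chromatin, and its level was not measured here. Each v-Abl group is a transformed line with an introduced recombinase, not a primary cell.

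In V(D)J recombination the RAG proteins cut beside the coding segments and leave hairpin-sealed coding ends. The hairpins are opened, the ends are trimmed, and end-joining factors ligate them. In pro-B cells terminal deoxynucleotidyl transferase (TdT) can add untemplated bases, rich in G and C, before ligation. Where none are added, short stretches of sequence shared by both ends, called microhomology, can align the ends and favour certain joins. TdT was not measured in these libraries.

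The JH4 end and the ends of the D segments that carried most of the members are shown because the overlaps described later arise from them. Each is in coding orientation, 5' to 3', from mm9 chromosome 12, minus strand, and capitals mark TAC where a D segment ends in it and where JH4 holds it near its 5' end.
Ighj4 5' end: atTACtatgctatggactactgg
Ighd1-1: tttattactacggtagtagcTAC
Ighd2-3: tctatgatggttacTAC
Ighd2-4: tctactatgattacgac
Ighd4-1: ctaactgggac
The JH4 stretch covers chr12:114666756-114666778. Ighd1-1, the D segment farthest from JH4, lies at chr12:114720381-114720403 and Ighd4-1, the nearest, at chr12:114668739-114668749. Between them, Ighd2-3 covers chr12:114713611-114713627 and Ighd2-4 covers chr12:114708905-114708921. All are coding segments, named from the gene annotation. TAC ended 6 of the 10 main D segments in mm9, and 3 ended in GAC. In the target used for bone marrow reads, 7 of 13 ended in TAC and 5 in GAC.

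Exact joins are printed from their germline ends, because a handful of them made up much of the v-Abl reads as deposited. They are the 5 most frequent of each WT group and the most frequent of Ighd4-1, a rarer join shown for the segment nearest to JH4. Capitals mark the bases that both ends share. A join without capitals is blunt.
Ighd1-1 TAC join: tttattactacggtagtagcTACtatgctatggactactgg
Ighd1-1 CTA join: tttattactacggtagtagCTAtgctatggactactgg
Ighd1-1 blunt join: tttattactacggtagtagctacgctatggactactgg
Ighd1-1 A join: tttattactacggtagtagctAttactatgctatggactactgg
Ighd2-3 TAC join: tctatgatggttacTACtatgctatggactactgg
Ighd1-family TAC join (bone marrow target): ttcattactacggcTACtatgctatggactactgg
Ighd4-1 AC join: ctaactgggACtatgctatggactactgg
Losses are given with shared bases counted to both ends, so an overlapping join lost more than they show. In the Ighd1-1 TAC join the D segment lost no base and JH4 lost 2 by this count. The CTA join had lost 1 base from the D and 4 from JH4, and the blunt join had an intact D and 8 bases lost from JH4.

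Blunt or overlapping ends made up a small share of D joins in bone marrow and most of them in v-Abl cells. In WT bone marrow the share was 11.1%, 12.2% and 11.6% in the 3 libraries, a mean of 11.6% ± 0.580 (SD, n = 3). In untreated WT v-Abl cells it was 78.8%, 78.9% and 78.6%, a mean of 78.8% ± 0.169. Over all libraries it lay between 10.2% and 12.2% in bone marrow and between 74.6% and 79.1% in v-Abl cells, so the ranges were far apart. The cell type, strain, recombinase source and alignment target all differed between these sets, so what sets the difference cannot be told apart. D joins per library ran from 5867 to 60657 in bone marrow and from 11978 to 170211 in v-Abl cells. The widest 95% Wilson interval of a bone marrow library ran from 10.8% to 12.5%. These intervals cover counting error only, since reads carry no molecular identifier.

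**Figure D1:**
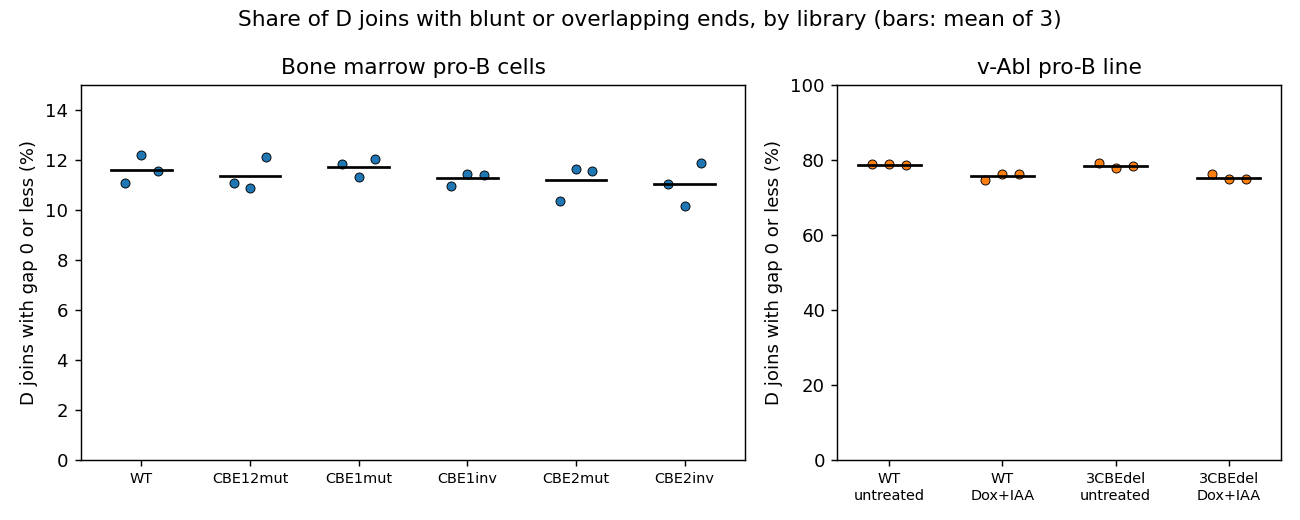
Share of D joins with a gap of 0 or less (y axis, percent) in each library (points) and the mean of 3 libraries (bars), for the bone marrow groups (left) and the v-Abl groups (right). The bone marrow libraries lie between 10.2% and 12.2% in every genotype, and both DoxIAA groups lie below both untreated v-Abl groups.

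The shape of the gap distribution also differed. In WT bone marrow, blunt joins were 5.37% ± 0.402 of D joins and overlapping joins 6.24% ± 0.194, while 84.5% ± 0.592 had 1 to 10 inserted bases. In untreated WT v-Abl cells, blunt joins were 26.2% ± 0.336 and overlapping joins 52.6% ± 0.275, and 21.0% ± 0.138 had 1 to 10 inserted bases. Just outside the rule, joins with a gap of 1 were 12.2% ± 0.434 of D joins in WT bone marrow and 12.1% ± 0.193 in untreated WT v-Abl cells. The share with a single extra base was thus alike in both cell types as deposited. When reads that repeat an earlier join and read end of their library were counted once, it was 12.03% ± 0.374 in WT bone marrow and 18.1% ± 0.284 in untreated WT v-Abl cells. Such a count did not compare the inserted bases, so different inserts of equal length could merge. Inserts of the comparison joins averaged 3.86 ± 0.030 bases in WT bone marrow and 1.89 ± 0.009 in untreated WT v-Abl cells. G and C made up 64.6% ± 0.149 of inserted bases in WT bone marrow and 57.3% ± 0.784 in untreated WT v-Abl cells.

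**Figure D2:**
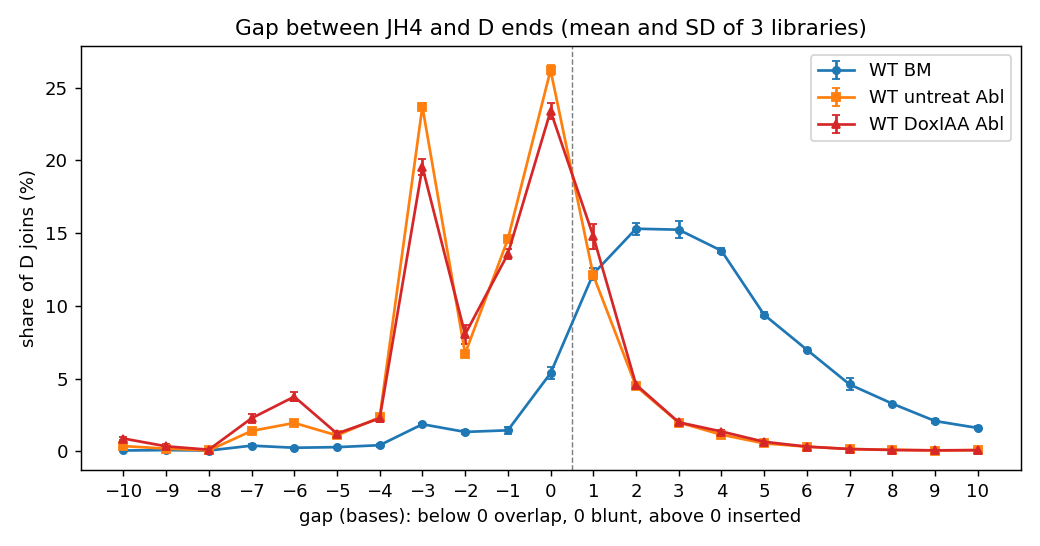
Share of D joins (y axis, percent, mean and SD of 3 libraries) at each gap in bases (x axis), for WT bone marrow and the WT v-Abl groups, with a dashed line at the upper limit of the members. Bone marrow joins spread over inserts, while v-Abl joins collect at gaps of 0 and below.

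In bone marrow, no change of the IGCR1 CBEs was accompanied by a detectable change in the share. CBE12mut libraries averaged 11.4% ± 0.675, CBE1mut libraries 11.7% ± 0.367 and CBE1inv libraries 11.3% ± 0.262. CBE2mut libraries averaged 11.2% ± 0.709 and CBE2inv libraries 11.03% ± 0.864. Every mutant range overlapped the WT range. Against WT the differences ran from -0.582 percentage points in CBE2inv to 0.118 in CBE1mut, with exact two-sided permutation p from 0.4 to 0.8, and all Benjamini-Hochberg adjusted p were 0.9. Those 5 comparisons share the WT libraries, and 3 libraries against 3 cannot give a p below 0.1. A permutation test over the 6 genotypes gave p = 0.7321 (18 libraries, 100000 random relabelings). CBE2inv against CBE2mut differed by -0.155 points (exact permutation p = 0.9, n = 3 each). By their read names, the CBE2mut and CBE2inv libraries came from another sequencing run than the other bone marrow groups, so effects of run and of genotype cannot be told apart when they are set against WT.

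The makeup of the bone marrow members by D segment did follow the genotype, as D usage did in all D joins. Ighd1-1 held 26.1%, 27.3% and 27.0% of members in the WT libraries and 2.68%, 4.08% and 5.49% in the CBE12mut libraries. Ighd4-1 held 6.47% ± 1.58 of members in WT and 17.49% ± 4.203 in CBE12mut, with no overlap. The comparison joins showed the same order: Ighd1-1 held 21.7% ± 1.05 of them in WT and 2.18% ± 0.061 in CBE12mut. These usage values were not tested.

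Within D segments, the odds of a gap of 0 or less differed from WT at few places. With limma on the log2 odds, 1 of 12 segments (8.33%) passed an adjusted p of 0.05 in CBE12mut and 1 of 12 (8.33%) in CBE2mut, both higher. For CBE1mut, CBE1inv and CBE2inv against WT and for CBE2inv against CBE2mut, limma called 0 of 12 (0%), with 1, 0, 0 and 1 segments at an unadjusted p below 0.05. The CBE12mut call was an Ighd2-family segment at chr12:114710077-114710093 of the bone marrow target. Its share was 20.6%, 15.0% and 16.0% in CBE12mut against 10.01%, 11.4% and 10.9% in WT, a log2 odds difference of 0.78 (SE 0.22, limma adjusted p = 0.011). The libraries did not overlap. The call was lost without CBE12mut replicate 1, without WT replicate 1, or with only junctions inside a D segment (0 segments called each).
Ighd2-family at 114710077: tctactatgattacgac
Its sequence is the same as that of Ighd2-4, so these copies were told apart only by bases outside the segment. At Ighd2-4 itself, CBE12mut did not differ detectably from WT (9.39% against 9.67%, limma adjusted p = 0.993). The CBE2mut call was the segment with the lowest WT share, an Ighd2-family segment at chr12:114690286-114690302 of the same target.
Ighd2-family at 114690286: cctactatggtaacTAC
Capitals again mark the TAC end. Its share was 12.1%, 14.0% and 14.1% in CBE2mut against 8.51%, 8.14% and 9.53% in WT, a log2 odds difference of 0.68 (SE 0.20, limma adjusted p = 0.018), across the run difference given earlier. Leaving out CBE2mut replicate 3, WT replicate 1 or WT replicate 2 left 0 segments called, and leaving out CBE2mut replicate 2 gave 2. The call was also lost with repeats counted once, with only junctions inside a D segment, with the gap re-derived from the reads and without weights (0 segments called each), where the log2 odds difference was 0.61, 0.60, 0.64 and 0.70.

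At the ends of the D array, Ighd1-1 had the highest share in WT bone marrow, 14.2% ± 0.42, and Ighd4-1 had 13.4% ± 3.07. In CBE12mut, where Ighd1-1 joins were few (189 to 379 per library), its share was 13.0%, 19.6% and 25.1%, which overlapped WT (log2 odds difference 0.71, SE 0.30, limma adjusted p = 0.123). In CBE2mut it was 9.93%, 13.5% and 10.6%, all below WT, yet short of the threshold (log2 odds difference -0.43, SE 0.16, limma adjusted p = 0.057). On the arcsine square root scale this Ighd1-1 difference did pass (limma adjusted p = 0.0368), as it did without CBE2mut replicate 2 (log2 odds difference -0.51, limma adjusted p = 0.0373). Ighd4-1 passed in no bone marrow comparison under any setting tried. In CBE1inv, leaving out WT replicate 1 gave 1 called segment, an Ighd1-family segment (log2 odds difference -0.43, limma adjusted p = 0.0486).

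**Figure D3:**
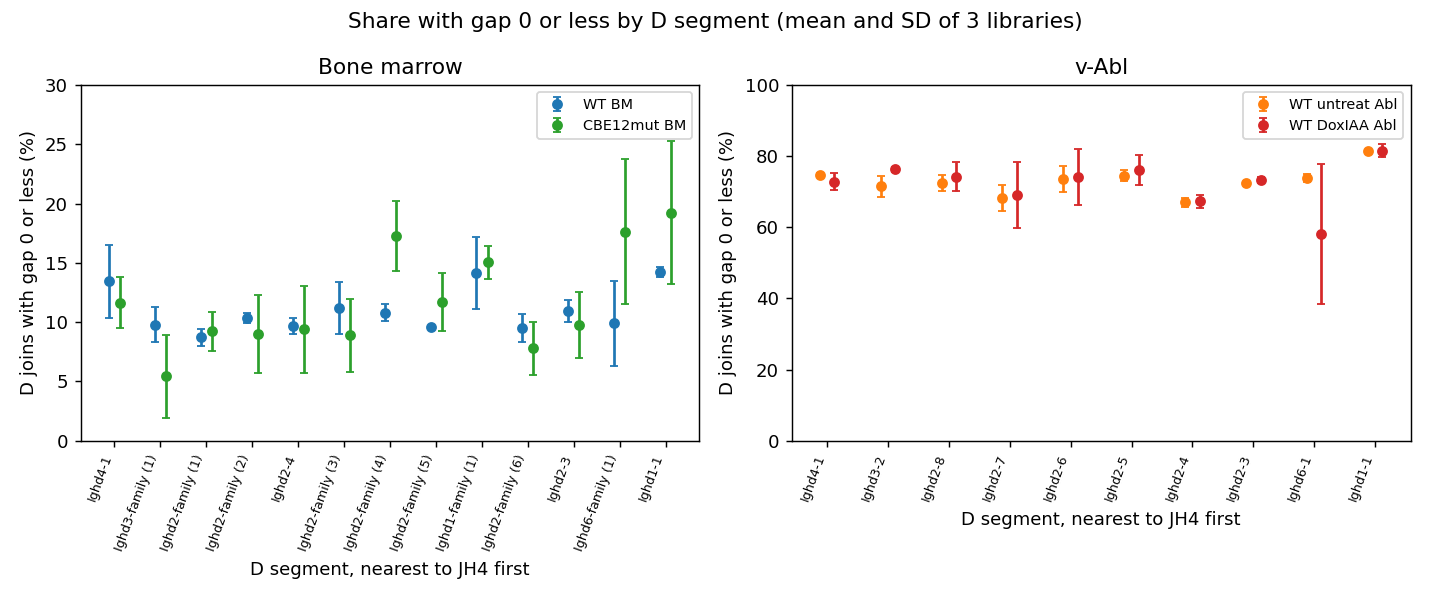
Share of D joins with a gap of 0 or less (y axis, percent) at each main D segment (x axis, nearest to JH4 first), as mean and SD of 3 libraries, for bone marrow and v-Abl groups. In v-Abl cells Ighd1-1 is highest and Ighd2-4 lowest among segments of untreated WT cells, and treated and untreated points lie close together at each segment with many joins.

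In v-Abl cells, treatment with IAA and Dox was accompanied by a lower share of blunt or overlapping joins. The share was 74.6%, 76.2% and 76.2% in treated WT cells against 78.8%, 78.9% and 78.6% in untreated ones. In 3CBEdel cells it was 76.1%, 75.0% and 74.8% with treatment and 79.1%, 77.8% and 78.5% without. Treated and untreated libraries did not overlap in either line. The difference was -3.13 points in WT and -3.19 in 3CBEdel (exact permutation p = 0.1 each, the smallest that 3 against 3 can give, adjusted p = 0.2). Over both lines, with treatment permuted within line, it was -3.16 points (exact permutation p = 0.005, 12 libraries). Lower values were seen in 6 of 6 treated libraries. The treatment effects of the lines differed by -0.0538 points (exact permutation p = 0.93). Within the sequencing runs that held both WT groups, the difference was -4.21 points (1 library against 1) and -2.59 (2 against 2), and in 3CBEdel it was -3.68 and -2.94.

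Blunt joins were fewer with treatment, and there were more joins with a single inserted base. Blunt joins were 26.2% ± 0.336 of D joins in untreated and 23.4% ± 0.524 in treated WT cells, and 25.4% ± 0.394 and 23.5% ± 1.18 in 3CBEdel. Joins with a gap of 1 were 12.1% ± 0.193 untreated and 14.8% ± 0.854 treated in WT, and 12.7% ± 0.024 and 15.3% ± 0.184 in 3CBEdel. For both classes the treated libraries of a line did not overlap its untreated ones. With overlapping joins alone the treatment difference over both lines was -0.835 points (exact permutation p = 0.185), and with a limit of 1 on the gap it was -0.506 (exact permutation p = 0.11), so neither passed the threshold. With repeats counted once, blunt joins in WT were again fewer with treatment (27.2% ± 0.569 untreated, 25.3% ± 0.478 treated), while a gap of 1 was near equal (18.1% and 17.8%) and overlapping joins went from 32.9% ± 0.343 to 42.9% ± 0.598.

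The D segments used moved with this result. Ighd1-1 held 75.9%, 76.1% and 74.6% of the members in untreated WT libraries and 36.3%, 37.7% and 36.7% in treated ones. Ighd1-1 was also the segment with the highest share of gap 0 or less in untreated WT cells, 81.4% ± 0.20, though with repeats counted once it had 59.1% ± 1.21, below the 70.1% ± 0.864 of Ighd4-1. The Ighd2 family went from 21.8% ± 0.660 to 49.3% ± 1.497 of the members, and Ighd4-1 from 1.84% ± 0.143 to 11.7% ± 0.466; the libraries did not overlap, and usage was not tested. In Ighd2-3 the share of gap 0 or less was 72.1%, 72.8% and 72.2% in untreated WT cells, and in Ighd2-4, the lowest, 67.0% ± 1.39.

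Within single segments no treatment difference was detected in the reads as deposited, but differences were called when repeats were counted once. In Ighd1-1 the share was 81.4% ± 0.20 untreated and 81.5% ± 1.89 treated in WT (log2 odds difference 0.03, SE 0.07, limma adjusted p = 0.933). In 3CBEdel the log2 odds difference of Ighd1-1 was -0.07 (SE 0.08, limma adjusted p = 0.972). In Ighd4-1 it was -0.13 in WT (SE 0.15, limma adjusted p = 0.927) and -0.15 in 3CBEdel (SE 0.19, limma adjusted p = 0.972). limma called 0 of 10 segments (0%) with treatment in either line, and 0 at an unadjusted p below 0.05. When D usage was set to that of the untreated group, the treated WT share was 79.0% ± 1.47 against 78.8% ± 0.092, and the difference over both lines became -0.128 points (exact permutation p = 0.805). With D usage made equal, treated and untreated shares thus differed by less than the spread between libraries. Without repeats, limma called 2 of 10 segments in each line, Ighd1-1 and Ighd2-3, all higher with treatment. The Ighd1-1 share was then 72.0% treated and 59.1% untreated in WT (log2 odds difference 0.83, SE 0.12, limma adjusted p = 4.5e-05) and 72.2% and 60.7% in 3CBEdel (0.74, SE 0.13, limma adjusted p = 0.00033). The Ighd2-3 difference was 0.43 in WT (limma adjusted p = 9.9e-06) and 0.35 in 3CBEdel (limma adjusted p = 0.00027). These counts came from unequal depths, with 30394 to 34527 distinct joins in untreated and 9281 to 10343 in treated WT libraries. The segment fit was not run on thinned libraries, so depth and treatment cannot be told apart in these calls.

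Repeated reads also moved with treatment. D joins numbered 80615 to 170211 in untreated libraries and 11978 to 27836 in treated ones. Among the members, lines that repeated an earlier join of the library, read end included, were 82.8% ± 1.92 in untreated and 62.9% ± 5.59 in treated WT cells. With each such join counted once, the direction reversed: the share was 60.04% untreated and 68.2% treated in WT, 61.5% and 68.8% in 3CBEdel, a difference of 7.74 points over both lines (exact permutation p = 0.005). When every v-Abl library was first thinned to 11978 D joins and repeats were then counted once, which left a mean of 5932 to 7338 distinct joins per library, the difference was 0.182 points (exact permutation p = 0.67). Joins with inserts counted as repeats when both ends, the gap and the read end matched, whatever the inserted bases. Distinct joins with an insert can thus be undercounted, which can raise the shares counted once. The part of PCR repeats and of independent cells with the same join in these values was not tested.

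**Figure D4:**
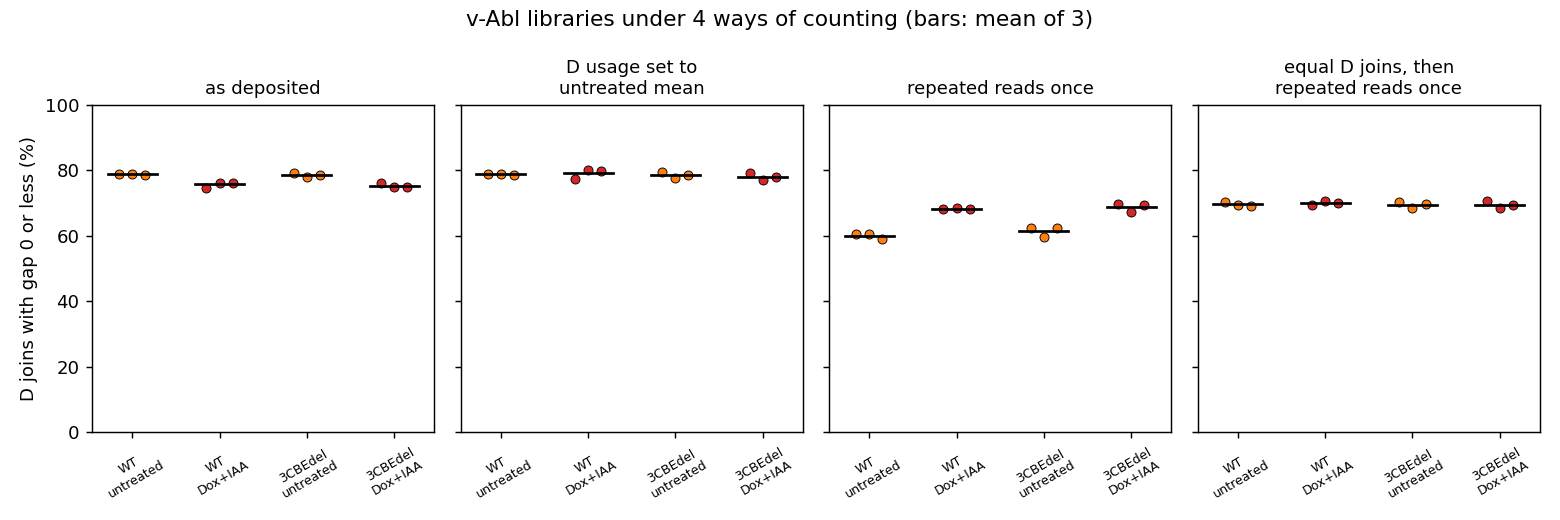
Share of D joins with a gap of 0 or less (y axis, percent) in the v-Abl libraries (points, with bars at the mean of 3) under 4 ways of counting. Treated libraries lie below untreated ones as deposited, above them with repeats counted once, and among them with equal D usage or with repeats counted once after thinning to equal numbers of D joins.

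The 3' CBE deletion was not accompanied by a detectable difference in the share. Against WT it differed by -0.287 points in untreated cells (exact permutation p = 0.6) and by -0.340 in treated cells (exact permutation p = 0.8), and the libraries overlapped. limma called 0 of 10 segments (0%) in both comparisons. At an unadjusted p below 0.05 it counted 1 segment untreated, Ighd1-1, whose share was 80.7% in 3CBEdel against 81.4% in WT (adjusted p = 0.268). Treated, it counted 0. In untreated cells Ighd1-1 passed without 3CBEdel replicate 1 (log2 odds difference -0.11, limma adjusted p = 0.0223), and with repeats counted once Ighd2-3 was the 1 segment called (0.13, limma adjusted p = 0.0351).

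Overlaps were more frequent among v-Abl members than among bone marrow members in the reads as deposited, but not longer. An overlap of 1 base or more was present in 53.8% ± 1.21 of WT bone marrow members and 66.7% ± 0.390 of untreated WT v-Abl members. For an overlap of 3 bases or more the shares were 29.8% ± 2.58 and 39.7% ± 0.366. Among the members that overlapped, the mean overlap was 3.13 ± 0.128 bases in WT bone marrow and 2.73 ± 0.016 in untreated WT v-Abl cells, without overlap of libraries. With repeats counted once, overlaps of 1 base or more were 53.1% ± 1.14 in WT bone marrow and 54.7% ± 0.449 in untreated WT v-Abl cells, where the libraries overlapped. Overlaps of 3 bases or more then changed order, at 28.96% ± 2.26 and 23.1% ± 0.782. So the greater frequency in v-Abl cells held for reads as deposited and not for joins counted once at full depth. Libraries were also thinned first to equal D joins within a cell type, which left unlike depths between them (5867 in bone marrow, 11978 in v-Abl). Overlaps of 1 base or more were then again more frequent in v-Abl cells. Such overlaps were then 53.8%, 52.1% and 54.5% in WT bone marrow and 60.4%, 60.3% and 60.8% in untreated WT v-Abl cells. Overlaps of 3 bases or more were 29.4%, 26.9% and 32.6% against 27.9%, 28.3% and 27.9%, with overlapping ranges.

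In the reads as deposited, 3 bases was the most frequent overlap length in v-Abl cells. Among members whose ends matched the germline exactly, overlaps of exactly 3 bases were 16.0% ± 1.34 in WT bone marrow and 30.2% ± 0.263 in untreated WT v-Abl cells. In v-Abl cells the 3-base class stood ahead of the 1-base class (18.6% ± 0.262), while in bone marrow both lay within their spread (14.5% ± 1.94 for 1 base). Counted without repeats, the 3-base class was 9.13% ± 0.276 in untreated WT v-Abl cells, behind the 1-base class at 21.2% ± 0.142, and in WT bone marrow it was 14.3% ± 1.48. Exact overlaps of 4 and 5 bases were more common in WT bone marrow, at 3.26% ± 1.39 and 2.90% ± 0.570, than in untreated WT v-Abl cells, at 1.39% ± 0.029 and 0.350% ± 0.038.

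The shared bases were mostly TAC and CTA, which the printed JH4 end and Ighd1-1 end both hold. Of exact overlaps of 3 bases or more, TAC made up 56.0% in untreated WT v-Abl cells and 40.7% ± 2.70 in WT bone marrow. CTA made up 30.8% and 19.6% ± 0.906. Counted once, TAC was 41.3% ± 1.48 and 38.3% ± 2.09, and CTA 18.5% ± 0.358 and 18.2% ± 1.03, so the cell types lay much nearer each other. The 6-base sequence TTACTA lies in JH4, Ighd2-3 and Ighd1-1, and its overlaps were not split by D segment. With treatment it went from 7.30% to 14.9% of those overlaps in WT and from 8.28% to 14.3% in 3CBEdel. With repeats counted once it was 13.2% and 15.6% in WT with overlapping libraries. TAC was 21.8% in CBE12mut bone marrow, the group with the fewest Ighd1-1 joins. The CBE2mut and CBE2inv libraries, from another sequencing run, had more TAC than WT with less Ighd1-1. There TAC was 46.1% and 46.9%, and Ighd1-1 held 12.9% and 13.4% of members against 26.8% in WT. CBE1mut and CBE1inv had 40.4% and 37.9% TAC, with Ighd1-1 at 23.7% and 21.3% of members. A relation between the TAC share and Ighd1-1 usage was not tested.

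D segments that end in TAC carried more of the longer overlaps. In untreated WT v-Abl cells, 36.1% ± 0.18 of exact members at TAC-ended segments overlapped by 3 bases or more, against 9.02% ± 0.97 at GAC-ended segments. In WT bone marrow these were 29.7% ± 3.22 and 16.8% ± 6.06. The libraries of both end types did not overlap in either group. The share of gap 0 or less was 79.4% ± 0.16 for TAC-ended and 69.8% ± 1.14 for GAC-ended segments in untreated WT v-Abl cells, and 11.9% ± 0.68 and 10.9% ± 0.81 in WT bone marrow, where the ranges overlapped. Ighd1-1 held 77.6% of the TAC-ended D joins in untreated WT v-Abl cells and carried much of that difference: without it TAC-ended segments stood at 72.4% ± 0.21. The other TAC-ended segments ran from 71.5% (Ighd3-2) to 74.5% (Ighd2-5), and the GAC-ended Ighd4-1 had 74.6%. In treated WT cells Ighd1-1 held 43.3% of TAC-ended joins. Counting repeats once turned the order of the untreated WT shares, to 59.6% ± 0.857 for TAC-ended and 63.96% ± 1.02 for GAC-ended segments, while the order of the overlaps of 3 bases or more was kept (15.9% ± 0.272 and 7.95% ± 0.255).

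Treatment differences in overlap depended on how repeats were counted, and were small in the reads as deposited. An overlap of 1 base or more was present in 69.4%, 69.1% and 68.7% of treated WT members against 66.3%, 66.8% and 67.1% of untreated ones, a difference of 2.35 points with no shared range (exact permutation p = 0.1, adjusted p = 0.4). In 3CBEdel the same comparison gave 1.06 points with overlapping libraries (exact permutation p = 0.4). For overlaps of 3 bases or more the treatment difference was 0.815 points in WT (exact permutation p = 0.1, adjusted p = 0.2), and it turned to -0.332 when the gap was re-derived from the reads. When repeats were left out, overlaps of 1 base or more were 62.9% in treated and 54.7% in untreated WT cells and 63.1% and 55.04% in 3CBEdel, differences of 8.12 and 8.03 points. Overlaps of 3 bases or more then differed by 8.22 and 8.93 points (31.3% against 23.1% in WT). Those libraries did not overlap in either line (exact permutation p = 0.1 each, the smallest possible). After thinning to equal numbers of D joins and counting repeats once, the differences were 3.11 and 2.67 points for 1 base or more and 4.31 and 4.45 for 3 bases or more (exact permutation p = 0.1 each). Between untreated cells as deposited, 3CBEdel had 1.35 points more overlaps of 3 bases or more than WT (exact permutation p = 0.1, adjusted p = 0.2, no overlap of libraries). With repeats counted once the libraries overlapped, at 23.8%, 23.5% and 23.7% in 3CBEdel and 22.2%, 23.6% and 23.5% in WT. In bone marrow reads as deposited, CBE2mut had 3.16 points fewer overlaps of 1 base or more than WT, again across runs (50.6% ± 0.765, exact permutation p = 0.1, adjusted p = 0.4). No other genotype separated from WT.

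Loss of bases from the ends was small in v-Abl members as deposited, with shared bases counted to both ends. The losses of overlapping members are therefore lower limits. The median loss from JH4 was 3 bases in each WT bone marrow library and 2 in each v-Abl library. The median loss from the D was 1 base in each v-Abl library and 1.67 ± 0.58 in WT bone marrow. With repeats counted once, every untreated WT v-Abl library and every WT bone marrow library had the same medians, 3 bases from JH4 and 2 from the D, while treated v-Abl libraries stayed at 2 and 1. This depended on depth. After thinning to equal D joins within a cell type and counting once, untreated and treated WT v-Abl libraries all had 2 and 1. WT bone marrow libraries then had 3 bases from JH4 and 1.5 to 2 from the D. CBE12mut lost a median of 3.33 ± 0.58 D bases, above every WT library (exact permutation p = 0.1, adjusted p = 0.6). In that group 91.7% ± 2.85 of members lay at a main segment against 98.0% ± 1.05 in WT. The D end was intact in 33.0% ± 0.526 of WT bone marrow members and 41.9% ± 0.146 of untreated WT v-Abl members, against 38.2% ± 1.12 and 49.6% ± 0.906 of the comparison joins. Counting repeats once turned the order of the members, to 32.03% ± 0.357 in WT bone marrow and 26.8% ± 0.470 in untreated WT v-Abl cells. Both ends were intact in 4.90% ± 0.587 of members in WT bone marrow and 0.610% ± 0.043 in untreated WT v-Abl cells (4.91% and 1.56% with repeats counted once). Members of both cell types thus mostly had lost bases from at least one end, which follows in part from the overlaps. A member whose ends overlap must have lost bases, while the comparison joins have no overlap. Intact ends were read from the re-derived ends of all members, also those whose re-derived gap was above 0. As deposited, JH4 was intact in 16.3% to 19.2% of v-Abl members by library and the D in 41.6% to 44.6%. In bone marrow libraries these were 13.9% to 21.4% and 23.9% to 39.0%.

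A few exact joins held much of the v-Abl reads as deposited. The Ighd1-1 TAC join was 14.3%, 14.2% and 13.8% of members in untreated WT libraries and 2.12% ± 0.443 in WT bone marrow. The CTA join of Ighd1-1 was 10.2% ± 0.187 of untreated WT v-Abl members and 2.14% ± 0.294 of WT bone marrow members, where it and the TAC join were within their spread. The blunt Ighd1-1 join was 9.93% ± 0.060 and 1.91% ± 0.574. The same 3 joins thus had the highest means in both cell types. Their order was not settled in bone marrow, where the blunt join led in replicate 1 and the TAC join in replicates 2 and 3. The 5 most frequent exact joins of a library held 43.0% ± 0.441 of members in untreated WT v-Abl cells and 8.91% ± 0.386 in WT bone marrow. Counting repeats once removed most of this contrast. The TAC join was then 2.01% ± 0.103 of untreated WT v-Abl members and 1.47% ± 0.292 of WT bone marrow members, the CTA join 1.93% ± 0.129 and 1.70% ± 0.320, and the blunt join, now first in v-Abl cells, 3.32% ± 0.136 and 1.81% ± 0.519. The leading 5 joins of a library held 10.9% ± 0.514 and 7.26% ± 0.073.

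With treatment the leading Ighd1-1 joins took smaller shares of the reads as deposited, and the Ighd2-3 and Ighd4-1 joins larger ones. In WT cells the TAC join of Ighd1-1 went from 14.1% ± 0.289 to 6.65% ± 0.311 and its A join from 5.06% ± 0.056 to 2.32% ± 0.175. The TAC join of Ighd2-3 went from 3.71% ± 0.183 to 7.41% ± 0.866, and the AC join of Ighd4-1 from 0.371% ± 0.070 to 2.32% ± 0.241. In 3CBEdel the Ighd1-1 TAC join went from 14.6% ± 0.667 to 8.22% ± 0.629. Without repeats the Ighd1-1 TAC join instead went from 2.01% ± 0.103 to 3.20% ± 0.422 in WT, and its A join from 1.70% ± 0.123 to 1.86% ± 0.148. The Ighd2-3 TAC join (1.61% ± 0.073 to 3.38% ± 0.353) and the Ighd4-1 AC join (0.596% ± 0.075 to 1.73% ± 0.148) kept their direction. These shares were not tested.

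The leading joins also shared a reading frame. Frame 1 is defined here by codons that start at the third base of the D segment; it is rich in tyrosine codons in Ighd1-1 and the Ighd2 family. Frame 2 starts at the first base and frame 3 at the second. Frame 3 holds a stop codon in 8 of 10 main mm9 segments and 10 of 13 bone marrow segments, and frame 1 in none and 1. The 5 most frequent exact joins of each WT group, 6 distinct joins since 4 stood in both lists, were all in frame 1, as was the Ighd4-1 AC join.

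Frame 1 was the most used frame among all members. It made up 51.4%, 52.6% and 53.1% of them in WT bone marrow and 66.2%, 67.0% and 66.7% in untreated WT v-Abl cells. Among the comparison joins it made up 38.5% ± 0.466 and 24.6% ± 0.490. In v-Abl cells the leading frame of the comparison joins was frame 3, at 43.4% ± 0.508, against 21.9% ± 0.184 among members. The frame order of v-Abl joins thus turned over between joins without and with inserted bases. The D frame is read from the same ends and gap that chose the members, so it is no independent measure. With repeats counted once, frame 1 still led among members, at 51.3% ± 1.58 in WT bone marrow and 46.6% ± 0.623 in untreated WT v-Abl cells, and frame 3 among the v-Abl comparison joins, at 38.3% ± 0.745, but the higher frame 1 share in v-Abl cells than in bone marrow was not kept.

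**Figure D5:**
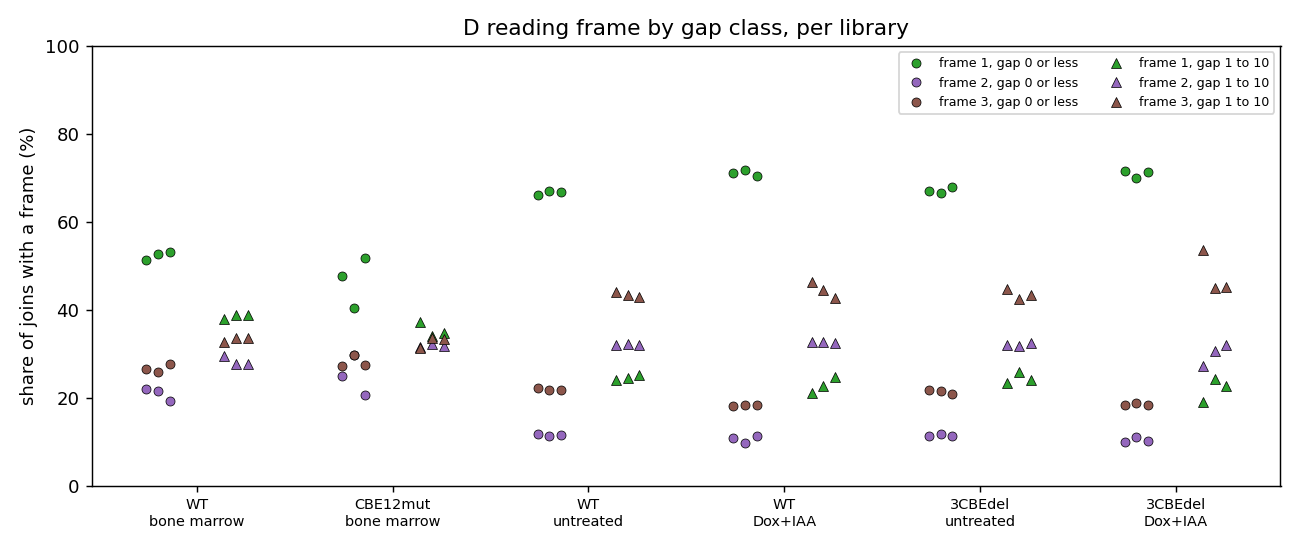
Share of joins in each D reading frame (y axis, percent; 1 point per library) for members and for joins with a gap of 1 to 10, by group (x axis). Frame 1 leads among members in every group drawn, and frame 3 leads among the inserted joins of the v-Abl groups.

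Among the bone marrow mutants, mean frame 1 shares of members ran from 46.7% ± 5.74 for CBE12mut to 53.2% for CBE2inv. Libraries of CBE12mut ranged from 40.5% to 51.9%, which overlapped the lower end of the WT range. In treated v-Abl cells frame 1 was 71.2%, 71.8% and 70.5% in WT libraries and 70.9% ± 0.804 in 3CBEdel libraries, above every untreated library; these differences were not tested and came with the change in D usage.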

How the data were processed

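The deposited tables hold 1 line per read with read and target positions of the JH4 and joined alignments (unit: other; positions, not normalized), per the file headers. Reads were aligned with Bowtie2, per the submitters' processing notes; its version is not given in the sources used here. v-Abl reads were placed on mm9. Bone marrow reads were placed on a hybrid of mm9 with 129 strain sequence, per the labels, so the 2 sets of coordinates are not comparable, and bone marrow D sequences were read as the consensus of the reads. The deposited duplicate column was 0 on every line, so repeats were counted. As an alternative, reads of a library with the same JH4 end, D end, gap and read end were counted once. Inserted bases were not compared, so distinct joins with an insert can be undercounted. That can raise the share of gap 0 or less. Counting once moved many v-Abl values, which are given beside those as deposited. Differences between 2 groups' mean shares were tested by relabeling the libraries in all ways (exact permutation, two-sided), and the 6 bone marrow genotypes together by 100000 random relabelings. The log2 odds per D segment (0.5 added to both counts, at least 20 D joins in every library) were tested with limma 3.58.1 in R 4.3.3, weighted by the joins behind them, with Benjamini-Hochberg adjustment; the code was tested on simulated data. Joins within 100 bases of a D segment counted to it. Segment names in the bone marrow target need a flank identity of 97%. Exact joins are the members whose gap stayed at 0 or less when re-derived (terminal matches under 8 bases beyond a mismatch removed): 79.5% of bone marrow and 98.3% of v-Abl members. The segments at both ends of the array, those with the highest and lowest WT share, those past the limma threshold without overlap of libraries, the 5 most frequent exact joins of each WT group, and the most frequent one of Ighd4-1 and of Ighd1-1, were named. Members, lists and tests were chosen with earlier results of these data known.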

Additional observations from a re-analysis of the deposited data

How the results depend on the processing

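The difference in the share of blunt or overlapping joins between bone marrow and v-Abl cells was kept under every alternative tried for it, including the re-derived gap (7.97% to 10.3% in bone marrow libraries and 73.4% to 78.0% in v-Abl libraries). The treatment difference in v-Abl cells depended on how repeats, D usage and the gap limit were treated: over both lines it was not past the threshold with overlapping joins alone (exact permutation p = 0.185), with a gap limit of 1 (exact permutation p = 0.11) or with D usage set to the control (exact permutation p = 0.805). Genotype differences in the share, all within the spread of libraries, changed sign often. The re-derived gap and the thinning were chosen after seeing the data, and differences in shares are in percentage points. With each repeated join counted once, the difference in the share became 0.188 in CBE12mut, 0.260 in CBE2inv against CBE2mut, 8.15 in WT treatment, 7.32 in 3CBEdel treatment, 1.44 in untreated 3CBEdel against WT, 0.613 in treated 3CBEdel against WT and 7.74 for treatment over both lines. Overlaps of 1 base or more differed by 0.808 in CBE2inv against CBE2mut and 0.212 in treated 3CBEdel against WT. The difference in overlaps of 3 bases or more became 0.819 in CBE12mut. The log2 odds difference became 0.0031 for Ighd1-1 in CBE1inv, 0.83 for Ighd1-1 in WT treatment, 0.74 for Ighd1-1 in 3CBEdel treatment and 0.089 for Ighd1-1 in untreated 3CBEdel against WT. There, limma called this many segments: 0 in CBE2mut, 2 in WT treatment, 2 in 3CBEdel treatment and 1 in untreated 3CBEdel against WT. With only junctions inside a D segment, the difference in the share became 0.0367 in CBE2inv against CBE2mut. Overlaps of 1 base or more differed by -4.59 in CBE12mut. The difference in overlaps of 3 bases or more became -0.909 in CBE2inv against CBE2mut. The difference in median D loss became -0.333 in CBE2inv against CBE2mut. The log2 odds difference became -0.056 for the segment at 114690286 in CBE12mut. There, limma called this many segments: 0 in CBE12mut and 0 in CBE2mut. With a D-side alignment of at least 50 bases, the difference in overlaps of 3 bases or more became -0.549 in CBE2inv against CBE2mut. The log2 odds difference became -0.017 for Ighd4-1 in CBE1inv. With blunt joins alone, the difference in the share became 0.0885 in CBE1inv, 0.155 in CBE2mut, 0.207 in CBE2inv, 0.0523 in CBE2inv against CBE2mut, 0.144 in treated 3CBEdel against WT and 0.98 for the difference of the treatment effects. With overlapping joins alone, the difference in the share became -0.165 in CBE1mut, 0.549 in untreated 3CBEdel against WT and -0.835 for treatment over both lines. With a gap limit of 1, the difference in the share became -0.455 in CBE1mut, 0.833 in CBE2mut, 0.173 in CBE2inv, 0.265 in untreated 3CBEdel against WT, 0.143 in treated 3CBEdel against WT and -0.506 for treatment over both lines. With D usage set to the control, the difference in the share became 1.15 in CBE12mut, -0.0506 in CBE1mut, 0.0316 in CBE2inv, 0.258 in WT treatment and -0.128 for treatment over both lines. With the re-derived gap, the difference in the share became 0.0222 in CBE12mut and 0.153 in CBE2inv against CBE2mut. Overlaps of 1 base or more differed by -1.15 in CBE12mut. The difference in overlaps of 3 bases or more became -0.108 in CBE2inv against CBE2mut, -0.332 in WT treatment and -0.452 in 3CBEdel treatment. The difference in median D loss became -0.333 in CBE1mut. The log2 odds difference became -0.079 for Ighd4-1 in CBE1inv and -0.018 for Ighd1-1 in CBE2inv. There, limma called this many segments: 2 in CBE12mut and 0 in CBE2mut. After thinning to equal D joins with repeats counted once, the difference in the share became -0.0897 in CBE1mut, 0.251 in CBE2inv against CBE2mut, 0.280 in WT treatment, 0.0837 in 3CBEdel treatment and 0.182 for treatment over both lines. Overlaps of 1 base or more differed by 0.518 in CBE2inv against CBE2mut. Without weights, limma called this many segments: 2 in CBE12mut and 0 in CBE2mut. On the arcsine square root scale, the difference of Ighd1-1 in CBE2inv became -0.0021. There, limma called this many segments: 2 in CBE2mut, Ighd1-1 being the one gained.

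With 1 library left out at a time, differences that changed direction or call covered these ranges. The share ran from -0.608 to 0.0346 in untreated 3CBEdel against WT, -0.633 to 0.0528 for CBE12mut, -0.160 to 0.419 for CBE1mut, -0.581 to 0.282 in CBE2inv against CBE2mut and -0.579 to 0.268 for the difference of the treatment effects. Overlaps of 1 base or more ran from -1.34 to 0.452 in treated 3CBEdel against WT, -1.50 to 1.97 in CBE12mut and -2.63 to 0.748 in CBE2inv against CBE2mut, and of 3 bases or more from -0.356 to 1.54 in 3CBEdel treatment and -1.48 to 1.88 in CBE2inv against CBE2mut. The number of segments called ran from 0 to 1 in untreated 3CBEdel against WT, 0 to 1 in CBE12mut, 0 to 1 in CBE1inv and 0 to 2 in CBE2mut. Log2 odds differences of Ighd1-1 ran from -0.14 to 0.0018 in 3CBEdel treatment, -0.11 to -0.015 in untreated 3CBEdel against WT, -0.13 to 0.18 in CBE2inv, -0.51 to -0.37 in CBE2mut and -0.034 to 0.12 in WT treatment. Log2 odds differences of Ighd2-4 ran from -0.12 to 0.20 in 3CBEdel treatment, -0.043 to 0.28 in treated 3CBEdel against WT and -0.030 to 0.088 in WT treatment. Log2 odds differences of Ighd4-1 ran from -0.36 to 0.12 in 3CBEdel treatment, -0.23 to 0.16 in CBE1inv, -0.10 to 0.29 in CBE1mut, -0.37 to 0.29 in CBE2inv against CBE2mut and -0.49 to 0.17 in CBE2mut. Log2 odds differences of Ighd2-family segments ran from -0.023 to 0.24 in CBE12mut (segment at 114690286), 0.58 to 0.77 in CBE2mut (segment at 114690286) and 0.63 to 0.86 in CBE12mut (segment at 114710077).

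No pairing of libraries by replicate number was seen, though 3 pairs per comparison are too few to exclude it. Correlations of deviations between same-numbered libraries ran from -0.65 to 0.62 over the comparisons, and in none were all 3 above 0.1. With the replicate block, the treatment difference was -3.13 points in WT and -3.19 in 3CBEdel (exact sign-flip permutation p = 0.25, the smallest that 3 pairs can give). The replicate block changed no count of called segments, and turned the log2 odds difference of Ighd4-1 in CBE2mut to 0.018. For the changes listed here the cause was not tested, beyond what an alternative removes by construction. Depth limits bone marrow most, where a library held as few as 683 members.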
